A study of Rattus norvegicus with 6 samples.

Results

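The transcripts described here are those that the array names by something other than a RefSeq name in NM_, NR_ or XR_, a long non-coding MR name or an ultraconserved element. They were picked by name: every non-control probe whose name in the scanner files starts with none of NM_, XR_, NR_, MR and uc. was included, which gave 2265 of 24684 probes. The names fall into 31 prefixes, of which BC is the largest with 861 probes. RNA came from pancreatic islets, the small endocrine organs within the pancreas that secrete insulin and glucagon, which were freed by collagenase from male Wistar rats killed with CO2. Islets of 3-month-old rats and of 12-month-old rats were compared, 3 arrays of each age, and the series describes 3 rats of each age. No treatment or transgene was used, and strain and sex were shared by both groups. Total RNA was labelled with Cy3 and hybridised to 1-colour Arraystar arrays built by Agilent. Values are log2 signal after quantile normalisation, which gives every array the same distribution of values, and a difference is always 12-month minus 3-month.

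Before a gene is given a curated reference sequence, it is often known from a cDNA clone, a DNA copy of an RNA that was sequenced and entered in a public archive. The letters that open such a name say how the record reached the archive, not what the RNA does. BC names belong to full-length clones of the Mammalian Gene Collection, a programme that sequenced cDNA libraries systematically. Names in AF, AY, DQ, EF, EU, U, L, M, J and K are direct submissions to GenBank, AB and D names came through the Japanese archive, and AJ, AM, X, Y and Z names through the European one. S names were entered from journal articles, AX names from patents, and AA, AI, AW, BI and DY names are expressed sequence tags, which are single reads of a cDNA. Transcripts of this kind can be protein coding or non-coding, and in islets as in other tissues they can include alternative forms of genes that also have a RefSeq entry.

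The name is all that these arrays give. None of the 2265 names (0) matched the RefSeq table of rat genes used here, so no gene name, strand, position or sequence is attached to any of them. Whether any of them shares a gene with an mRNA probe could not be examined. The description "known only from cDNA clones" could therefore not be checked against the genome, and some prefixes do not meet it. There were 3 Ensembl transcript names, 2 XM_ names, which are RefSeq predictions, 9 patent sequences, 20 custom names starting CUST_ and 6 names starting TC, which is the style of assembled tag clusters. Each of the 2265 transcripts had a single probe, printed on 3 spots for 2225 probes and on 10 spots for 40 probes, and 0 were saturated.

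All 3-month arrays were read in 1 scan and all 12-month arrays in another, and scan and age cannot be told apart. Negative control spots had a median signal of 29.5 to 31.0 scanner units on the 3-month arrays and of 89.5 to 91.0 on the 12-month arrays. Across tested clone transcripts the arrays correlated with r of 0.95 to 0.98 within an age and of 0.88 to 0.96 across ages, as a description over probes, which are not independent. The tissue label was checked with 23 marker genes in 7 lists, of which 20 had a probe. All 5 islet hormone genes were above background on all 6 arrays, with a summed log2 level of 20.35 to 20.56 at 3 months and 20.58 to 20.66 at 12 months. All 5 acinar enzyme genes were also above background on every array, summing to 19.60 to 20.26 and 19.75 to 20.51, so that RNA of exocrine tissue was present at both ages. Of the 20 genes 0 passed an adjusted p of 0.05 in limma and 4 an unadjusted p of 0.05. Among those 4, the mesenchymal gene *Col3a1* measured 12.51 to 13.29 at 3 months and 13.94 to 15.39 at 12 months. The means at 3 and 12 months were 7.11 and 8.33 for the endothelial gene *Pecam1*, 5.43 and 3.32 for *Cdh5*, another endothelial gene, which was above background on no 12-month array, and 9.32 and 7.90 for the glial gene *S100b*. The part of these differences in the results that follow was not tested, and in whole islets a change in cell number cannot be told from a change in RNA per cell.

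Detection came before any test of level. A probe counts as well above background when the scanner software marks most of its spots so. On the 3-month arrays 68.8%, 71.9% and 73.1% of the 2265 probes were well above background, and on the 12-month arrays 54.0%, 51.0% and 49.0%. Every 3-month array thus detected more of them than any 12-month array. The means were 71.2% ± 2.21 and 51.3% ± 2.54 (SD, n = 3), a difference of -19.9 percentage points with an exact two-sided permutation p of 0.1, the smallest that 3 arrays against 3 can give. Over all 24684 probes the difference was -14.5 points. For the 861 BC names the difference was -12.4 points, from 86.7% to 74.4%, and for the 1404 other names it was -24.5 points, from 61.8% to 37.2%.

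Of the 2265 probes, 524 were above background on no array. That group held 80 BC names, or 9.29% of them, and 444 other names, or 31.6%. Testing required a mark well above background on 3 or more of the 6 arrays, and 1533 probes met this, with 732 set aside. Of the BC names 725 of 861 passed this filter, against 808 of 1404 other names. The probes just inside it, above background on exactly 3 arrays, were 284, and 270 of those were above background on all 3-month arrays and on no 12-month array. Their median log2 signal was 4.62 at 3 months and 3.93 at 12 months. The probes just outside, above background on 2 arrays, were 107, with medians of 3.71 and 3.35. In the other direction only 2 probes were above background on all 12-month arrays and on no 3-month array, TC598318 and L04760. The filter therefore let in dim probes almost wholly through the younger age.

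By limma, with Benjamini-Hochberg adjustment over all tested probes, 150 of the 1533 clone transcripts had an adjusted p under 0.05 for age, 83 of them higher and 67 lower at 12 months. This is 9.78% of them, beside 8.37% of the 17941 probes tested on the whole array, where 5.32% were higher and 3.05% lower. Higher calls made up 55.3% of the 150, beside 63.6% over the whole array. Of the 67 lower calls 31 were of transcripts above background on all 3-month and no 12-month arrays, and of the 83 higher calls 2 were of the reverse kind. Such transcripts passed the filter through 1 age alone, so their p-values support nothing. The counts by class, brightness and prefix that follow include them, and their number over the whole array is not given. The study's own threshold asks for a fold above 2 together with an unadjusted p under 0.05. Its supplementary lists took that p from a paired test, whereas the limma p used here is not paired. With a paired test 146 clone transcripts met the threshold, 79 higher and 67 lower, so the balance of directions depends on the test. Later counts at this threshold use the limma p unless another test is named. With the limma p 417 met it, 143 higher and 274 lower. That is 27.2%, beside 22.0% of all tested probes. The lower calls were 17.9% of the clone transcripts, beside 11.9% of all tested probes, and the higher calls 9.33%, beside 10.1%. Of the 274 lower calls 92 were of transcripts above background on all 3-month and no 12-month arrays. The median difference was -0.31, beside -0.17 over all tested probes, and the 3-month and 12-month arrays did not overlap for 621 transcripts, or 40.5%, beside 39.3% (16.5% higher and 22.8% lower). Of the 621, 216 were higher and 405 lower.

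**Figure D1:**
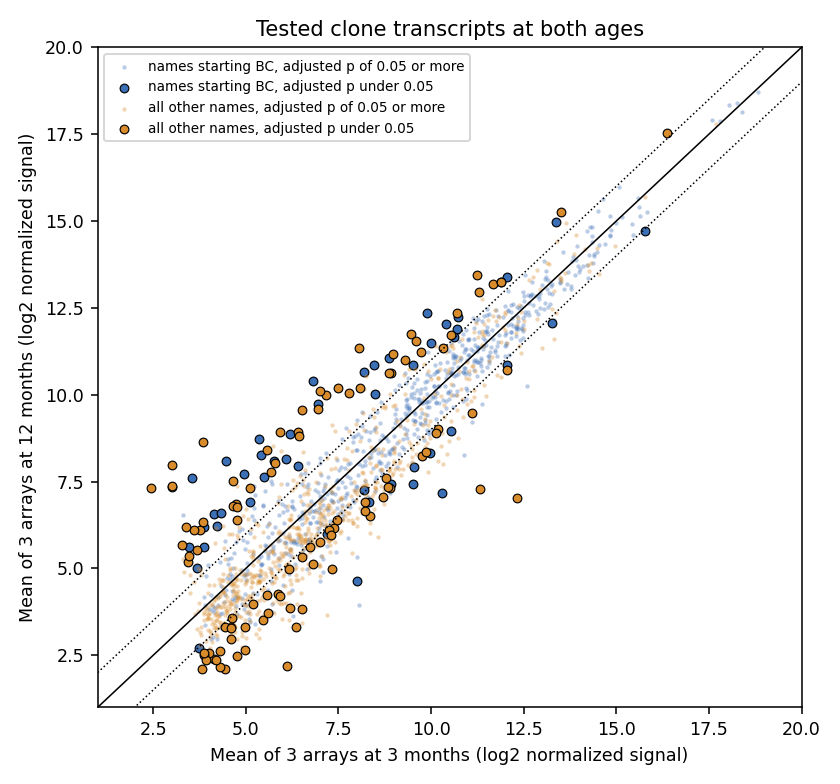
Mean log2 normalised signal of each of the 1533 tested clone transcripts on the 3 arrays at 3 months (horizontal) and at 12 months (vertical), with names starting BC in blue and all other names in orange; the solid line marks equal levels, the dotted lines a fold of 2, and outlined points the 150 with an adjusted p under 0.05. Most BC names lie along the diagonal at middle and high signal, while the other names are concentrated at low signal and below the diagonal.

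The size of these differences has to be read against the spread. The median SD between arrays of an age was 0.42 at 3 months and 0.37 at 12 months, and the median absolute difference between the ages was 0.66. Repeat spots on an array were closer, with a median SD of 0.11 to 0.16 according to the array. The count at the adjusted threshold changed with the array left out. It was 19 without 12-month replicate 1, 29 without 12-month replicate 3, 32 without 3-month replicate 1 and 42 without 3-month replicate 3. Without 3-month replicate 2 it was 108, and without 12-month replicate 2 it was 238. Each of these fits had 1 array fewer, and the part of that in the counts was not tested. Of the 150 calls, 15 were made in every fit that left out 1 array, 13 of them higher and 2 lower. The same count over all tested probes is not given, so nothing particular to the clone transcripts can be read from it. With all arrays kept, 63.6% of the calls over the whole array were already higher.

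The tested BC names and the other names differed in level and in the balance of their calls. The 725 BC names had a median log2 signal of 9.24 and a median difference of -0.10, with 65 called higher and 60 lower at the threshold of the study. The 808 other names had a median signal of 6.27 and a median difference of -0.59, with 78 called higher and 214 lower. As shares, 8.28% of BC names and 26.5% of other names were called lower, and 8.97% and 9.65% were called higher. At the adjusted threshold the counts were 33 higher and 15 lower for BC names, and 50 higher and 52 lower for the others. For comparison, the 12287 tested RefSeq mRNA probes had a median signal of 9.42 and a median difference of -0.12, and the 370 tested ultraconserved elements a median signal of 5.56 and a median difference of -0.66. These are descriptions of the classes, and no test of the difference between classes was made.

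The classes were also set side by side at like brightness. For this, the 17941 tested probes were put in 5 bins of equal number in the order of their mean signal. In the dimmest bin, with a log2 mean under 5.63, 93 of 321 other names were called lower and 19 higher, beside 20 lower and 11 higher of 106 BC names. In the next bin, up to 7.56, the calls were 63 lower and 19 higher of 221 other names, and 14 lower and 21 higher of 153 BC names. In the middle bin, up to 9.68, they were 42 lower and 16 higher of 136 other names, and 15 lower and 13 higher of 141 BC names. The share of other names called lower was thus 29.0%, 28.5% and 30.9% in these bins, where it was 18.9%, 15.0% and 15.5% of all tested probes. In the bin up to 11.72, 11 of 73 other names were called lower and 15 higher, and in the brightest, 5 and 9 of 57. Higher calls outnumbered lower ones over all tested probes too, with 361 and 273 in the former bin and 172 and 88 in the latter.

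**Figure D2:**
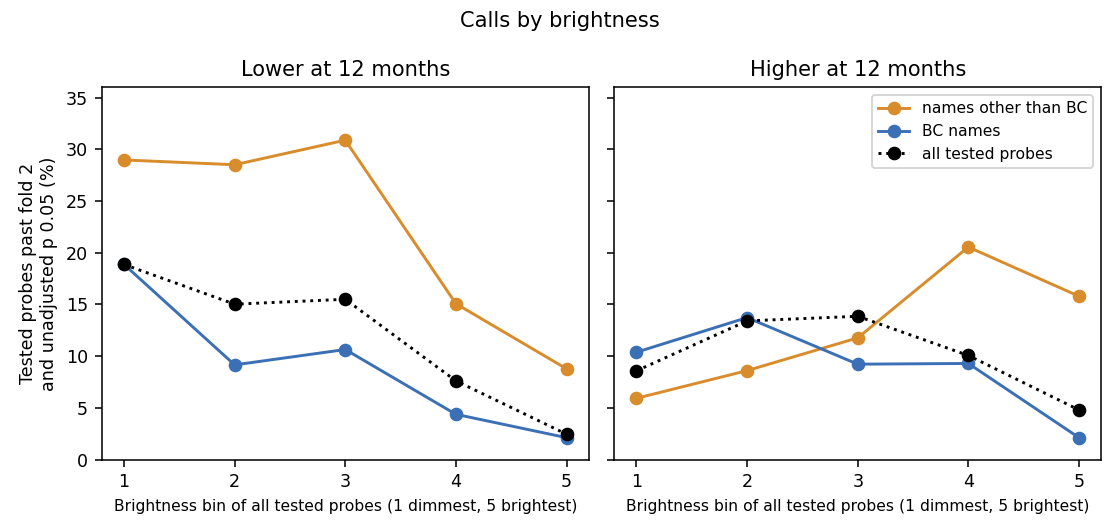
Percentage of tested probes past a fold of 2 and an unadjusted p of 0.05, lower at 12 months (left) and higher (right), in 5 equal bins of mean signal over all tested probes, for BC names (blue), names other than BC (orange) and all tested probes (black, dotted). The orange line stays near 29% lower in the 3 dimmer bins and drops to 8.77% in the brightest, while the BC line for lower calls runs from 18.9% to 2.11%, level with the dotted line in bin 1 and under it in the others.

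Restricting the clone transcripts to the 1020 above background on all 6 arrays changed the share of lower calls from 17.9% to 11.4%. Over all tested probes the same restriction changed it from 11.9% to 8.69%, so the clone share stayed above that of the whole array. In that set 117 were called higher and 116 lower, beside 1506 higher and 1177 lower of 13551 probes on the whole array, and the median difference was -0.13. The 596 BC names in the set were called higher in 57 cases and lower in 29, or 4.87% lower. The 424 other names were called higher in 60 cases and lower in 87, or 20.5% lower, with a median difference of -0.40. The balance also moved with the scaling. With normexp background correction, which adds an offset and compresses dim differences, 91 clone transcripts were called higher and 92 lower, beside 1258 higher and 875 lower over the whole array, and the other names had 52 higher and 66 lower. With each array shifted to a common 75th percentile, 110 were called higher and 438 lower, beside 1388 and 3532, and BC names turned to 47 higher and 105 lower. Under that shift the median over all tested probes was -0.40 and the clone median -0.60.

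Of the 12 prefixes with at least 20 tested transcripts, 11 held more lower than higher calls at the threshold of the study, BC being the exception. The highest shares of lower calls were in the old GenBank prefixes L and M. Of 41 tested L names 19 were called lower and 2 higher, and of 42 tested M names 19 lower and 4 higher, or 46.3% and 45.2% lower. Both had dim medians, 6.06 and 6.56, and their median differences were -0.88 and -1.03. The AJ names had 21 lower and 4 higher of 62, the S names 14 and 5 of 45, and the X names 11 and 4 of 38. The AF names had 35 lower and 11 higher of 145, the AY names 35 and 18 of 164, the U names 13 and 6 of 62 and the DQ names 8 and 3 of 36. AB names were most balanced among these, with 8 lower and 6 higher of 51, and the 23 tested AM names had 6 lower and 0 higher. The 19 smaller prefixes together had 25 lower and 15 higher of 99. These counts and their order changed with the array left out. The lower AJ calls were 5 without 12-month replicate 1, 5 without 12-month replicate 3, 8 without 3-month replicate 1 and 6 without 3-month replicate 3. Without the same 4 arrays the lower L calls were 13, 12, 12 and 11, the lower M calls 16, 14, 11 and 16, and the lower AF calls 21, 23, 22 and 24. Over all names other than BC the 214 lower calls became 139, 141, 141 and 147, and the 78 higher calls 68, 75, 65 and 72. Without 12-month replicate 2 and without 3-month replicate 2 they rose instead, to 269 and 246 lower and 94 and 85 higher. The lower AJ calls were then 24 and 22 and the lower AF calls 42 and 40. The lower L calls were 19 and 18 and the lower M calls 22 and 22.

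**Figure D3:**
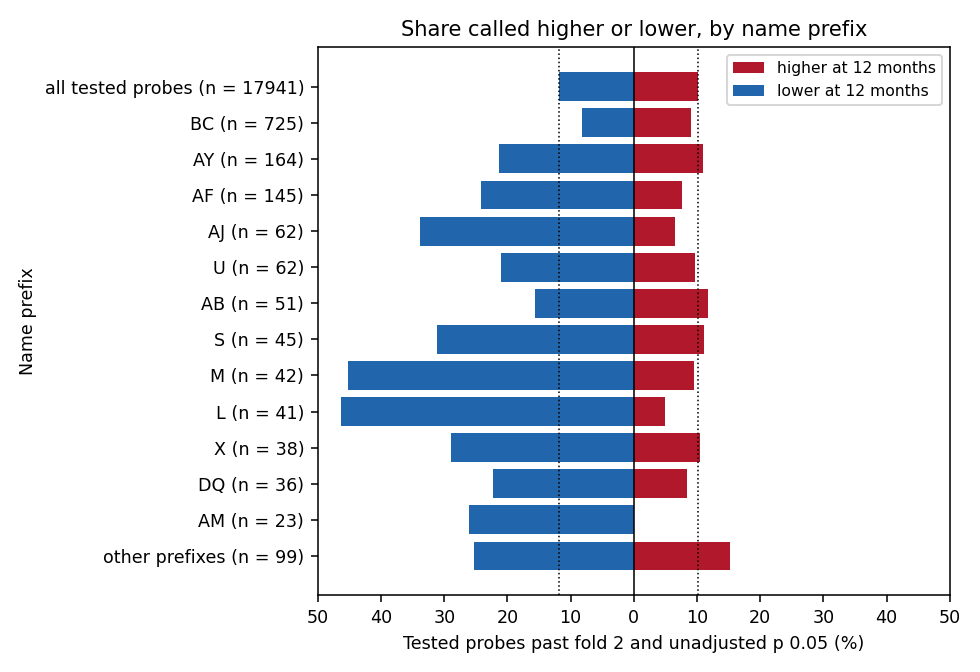
Percentage of tested probes called higher (red, to the right) and lower (blue, to the left) at 12 months past a fold of 2 and an unadjusted p of 0.05, for each name prefix with at least 20 tested probes, the smaller prefixes pooled, and all tested probes at the top; n is the number tested and the dotted lines repeat the shares of all tested probes. Every prefix except BC exceeds the dotted line on the lower side, whereas on the higher side the prefixes lie on both sides of it.

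The direction of several prefixes depended on the scaling or the filter. With normexp the M names had 6 lower and 4 higher calls, the L names 4 and 2, and the AF names 13 and 5, but the AY names had 13 lower and 14 higher and the U names 4 and 5. Among transcripts above background on all 6 arrays, fitted on their own, the M names had 12 lower and 3 higher of 24, the L names 7 and 0 of 18 and the AF names 14 and 5 of 74. In that fit the AY names had 15 lower and 16 higher of 85, the U names 5 and 6 of 41 and the AB names 3 and 4 of 23. At the adjusted threshold the M names had the highest share of any of the 12 prefixes, 26.2% or 7 lower and 4 higher.

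Among transcripts past the adjusted threshold, the largest fall was that of M26686. It measured 13.85, 11.25 and 11.88 on the 3-month arrays and 6.88, 7.34 and 6.81 on the 12-month arrays. All 12-month arrays lay far under all 3-month arrays, and the probe was above background on every one. The difference was -5.31 (limma SE 0.65, adjusted p 0.00969), which is 39.7-fold. It passed the adjusted threshold in every fit that left out 1 array, where the difference ran from -5.85 to -4.55, and it measured -4.65 with normexp. U49099 behaved similarly in level, with 12.83, 9.92 and 11.24 at 3 months and 7.11, 7.25 and 7.49 at 12 months. Its groups did not overlap, but 3-month values spread over almost 3 log2 units, and the difference of -4.05 (limma SE 0.68, adjusted p 0.0219) passed in 3 of the 6 fits that left out 1 array.

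The other large falls started from lower signal. BC092582 measured 11.11, 10.09 and 9.67 at 3 months and 8.33, 6.83 and 6.33 at 12 months, a difference of -3.12 (limma adjusted p 0.0300) with no overlap, called in 2 of the 6 fits that left out 1 array. DQ019621 measured 6.64, 6.15 and 5.55 at 3 months and 2.06, 2.44 and 2.07 at 12 months. BC167001 measured 7.67, 7.44 and 8.89 at 3 months and 4.16, 4.53 and 5.26 at 12 months. Both were above background on all 3-month arrays and on no 12-month array, so their fitted differences of -3.92 and -3.35 are not measured folds. For such a probe only a bound is given: the mean of the brighter age is set against the dimmer age, in which each array counts with its own signal or, if that is lower, with the lowest signal it had well above background. On this scale DQ019621 was at least 2.48-fold and BC167001 at least 8.68-fold lower at 12 months (limma adjusted p 0.00345 and 0.0139). With normexp their differences were -1.06 and -1.90 on the log2 scale, smaller than these bounds, so the size depends on the background correction.

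The 5 largest rises past the adjusted threshold were all of transcripts near background at 3 months. AB020504 measured 2.90, 4.05 and 2.09 at 3 months and 7.79, 8.60 and 7.51 at 12 months. M31178 measured 3.31, 4.23 and 3.98 at 3 months and 8.46, 7.81 and 9.67 at 12 months. In both, every 12-month array was above every 3-month array by more than 3 log2 units. AB020504 was above background on 1 of the 3-month arrays and M31178 on 2 of them, and they rose by 4.95 and 4.81 (limma adjusted p 0.00735 and 0.00628). With normexp the rises were 2.15 and 2.53, and both were called in all 6 fits that left out 1 array. Both met the filter only with the help of the 12-month arrays, where they are high, so these p-values and refits support nothing. AF199336 measured 2.58, 4.34 and 2.12 at 3 months and 7.52, 5.58 and 8.94 at 12 months, a difference of 4.33 (limma SE 0.93, adjusted p 0.0397). Its 12-month values spread over more than 3 log2 units, it was called in 2 of the 6 fits that left out 1 array, and it was not called with normexp (limma adjusted p 0.0806). It was above background on 1 of the 3-month arrays and met the filter in the same way, so its p-value supports nothing.

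For the remaining rises only a bound can be given. TC598318 measured 2.76, 2.32 and 2.23 at 3 months and 6.44, 8.58 and 6.90 at 12 months. L04760 measured 2.44, 3.31 and 3.28 at 3 months and 7.13, 7.14 and 7.83 at 12 months. Both were above background on all 12-month arrays and on no 3-month array, and both passed in all 6 fits that left out 1 array. They passed the filter through the 12-month arrays alone, so their p-values and refits support nothing. TC598318 was at least 19.5-fold and L04760 at least 17.3-fold higher at 12 months (limma adjusted p 0.00819 and 0.00307). With normexp their rises were 1.81 and 1.61 on the log2 scale, smaller than these bounds, so here too the size depends on the background correction.

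**Figure D4:**
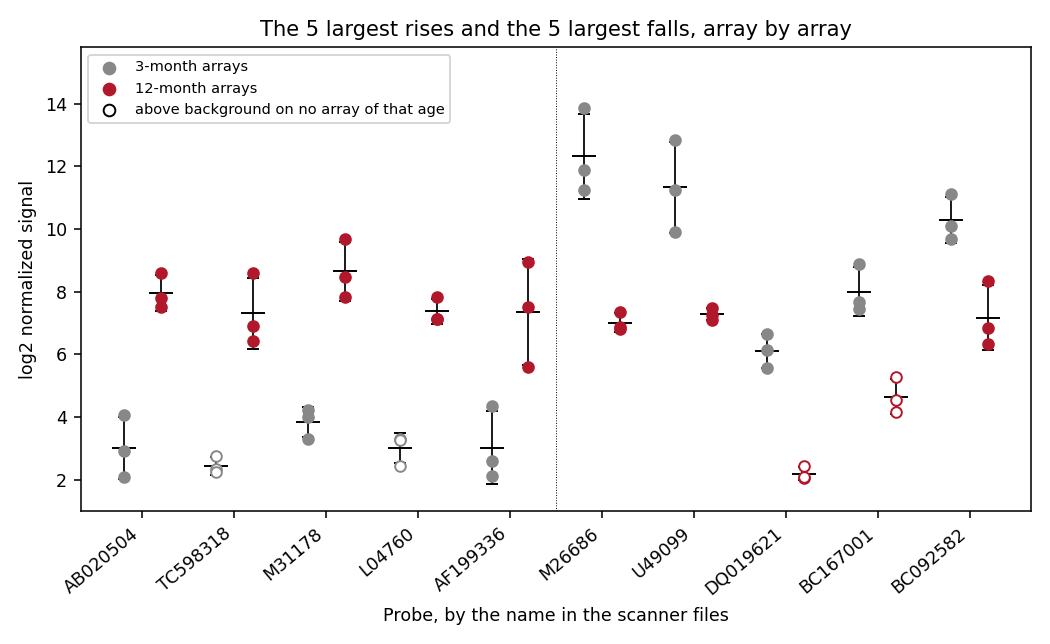
Log2 normalised signal on each array for the 5 transcripts with the largest rises (left of the dotted line) and the 5 with the largest falls (right) among those past an adjusted p of 0.05; grey points are 3-month arrays, red points 12-month arrays, open points mark an age at which the probe was above background on no array, and the black bars give the mean and SD of 3 arrays. The groups overlap for none of the 10, and M26686 and U49099 drop from above 9.9 to about 7.

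The next rises started from higher signal and were picked for the smallest p of their prefix. That choice favours a small spread, so their spread and refits support nothing. BC091440 had the smallest p of any clone transcript that was higher at 12 months in the BC class. It measured 7.01, 6.85 and 6.55 at 3 months and 10.28, 10.45 and 10.45 at 12 months, a rise of 3.59 (limma SE 0.23, adjusted p 0.00225) or 12.0-fold. Within each age the arrays differed by under 0.5, and without any 1 array the rise was 3.47 to 3.69. U68726 measured 6.86, 7.32 and 6.79 at 3 months and 10.07, 10.44 and 9.77 at 12 months, a rise of 3.10 (limma adjusted p 0.00430). AF130121 measured 6.07, 6.71 and 6.48 at 3 months and 8.59, 9.45 and 8.76 at 12 months, a rise of 2.51 (limma adjusted p 0.0108). In neither did the ages overlap, and both were called in all 6 fits that left out 1 array.

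A group picked after its values were seen contains the transcripts that were above background on all arrays and passed the adjusted threshold with normexp, with the 75th percentile shift and in every fit that left out 1 array. It had 9 members, 8 higher and 1 lower at 12 months. How many of all tested probes met the same rule is not given, so the number and its direction are not particular to the clone transcripts. BC158842 measured 4.12, 4.69 and 4.58 at 3 months and 7.91, 8.08 and 8.32 at 12 months, a rise of 3.63. TC596747 measured 5.81, 6.23 and 5.71 at 3 months and 8.75, 9.20 and 8.79 at 12 months, a rise of 2.99. The 12-month arrays of both were tightly grouped and well apart from the 3-month arrays. U12266 rose by 3.05, BC160904 by 2.47 and BC088292 by 2.39, and the 5 named here had limma adjusted p-values of 0.00252 to 0.0106. The other 4 were BC091440, U68726, AF130121 and the fall of M26686.

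The transcript with the smallest p in each direction was also taken within each prefix. Of the smallest-p rises, AB020504, M31178, L04760 and AY325251 were above background on 1, 2, 0 and 2 of the 3-month arrays, and the others on all 6 arrays. L04760 passed the filter through the 12-month arrays alone, so its p-value supports nothing. AB020504, M31178 and AY325251 passed only with the help of those arrays, so theirs support nothing either. AJ605749 measured 11.53, 11.85 and 11.64 at 3 months and 13.33, 13.23 and 13.04 at 12 months, a rise of 1.53 (limma adjusted p 0.0162). S74338 measured 9.59, 9.92 and 9.26 and then 11.55, 11.40 and 11.67, a rise of 1.95 (limma adjusted p 0.0119), and X83579 measured 5.80, 6.94 and 6.59 and then 8.84, 8.76 and 8.84, a rise of 2.37 (limma adjusted p 0.0137). In all 3 the ages did not overlap and every array was above background. AY325251 rose by 2.50 from dim 3-month signals of 3.92, 3.73 and 3.87 (limma adjusted p 0.00450), and DQ863132 rose by 2.14 (limma adjusted p 0.0279) and was called in 1 of the 6 fits that left out 1 array. In the AM prefix the smallest p among higher transcripts was that of AM418837, which differed by 0.04 (limma adjusted p 0.934) with overlapping groups, less than the spread between arrays.

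Of the smallest-p falls only M26686 was above background at both ages. The 11 others passed the filter through the 3-month arrays alone, being above background on all of them and on no 12-month array, so their p-values support nothing: AY169320, AF228043, AJ001144, U95153, AB036696, S73714, L13207, X59290, AM293770, DQ019621 and BC167001. AY169320 measured 7.36, 6.07 and 6.10 at 3 months and 3.71, 3.86 and 3.89 at 12 months, at least 3.27-fold lower (limma adjusted p 0.0148). AF228043 was at least 2.91-fold lower (limma adjusted p 0.0209). With normexp these 2 differed by -0.95 and -1.13 on the log2 scale, again smaller than the bounds. AB036696 shows the dimmer cases: it measured 4.04, 4.36 and 4.01 at 3 months and 2.23, 2.47 and 2.47 at 12 months, with no overlap and an adjusted p of 0.0119 in limma. Its 3-month mean was under the 12-month floor of detection, so no fold is given, and the same held for AJ001144, U95153, S73714, L13207, X59290 and AM293770. None of these 7 was called with normexp, where their limma adjusted p-values ran from 0.0947 to 0.620.

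The lowest signal well above background was 2.89 to 3.17 on the 3-month arrays and 4.26 to 5.13 on the 12-month arrays, on the same log2 scale. This is the range in which the dim falls lie. Of the 270 transcripts above background on all 3-month and no 12-month arrays, 92 were called lower and 1 higher at the threshold of the study. The higher one, AJ286150, measured 3.45, 3.78 and 4.13 at 3 months and 4.91, 4.86 and 4.67 at 12 months, so that it was brighter on the arrays that did not mark it as detected. The part of the higher background at 12 months in these calls was not tested.

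None of the 3 brightest clone transcripts was called. BC161988 measured 18.72, 18.86 and 18.86 at 3 months and 18.63, 18.86 and 18.63 at 12 months. BC166798 measured 18.43, 18.07 and 18.25 at 3 months and 18.34, 18.52 and 18.32 at 12 months. BC158811 measured 18.41, 18.34 and 18.39 at 3 months and 17.99, 18.25 and 18.19 at 12 months. Only for BC158811 did the ages not overlap, and its difference of -0.24 was not called (limma adjusted p 0.459). Quantile normalisation gives the brightest probes of every array nearly the same value, so differences here are held small by the scaling, and with the 75th percentile shift the same 3 measured -0.94, -0.55 and -0.79.

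Many names carry neighbouring accession numbers, as records submitted together do, and those were followed as a further description, chosen after the values were seen. Names of 1 prefix were joined in a series where the gap between numbers was at most 20. Of 2239 probes with a name of letters and digits, this gave 832 series, 576 of which held a single probe, and 33 with at least 8 tested transcripts. Of those 33 series, 23 were of BC names, with medians from -0.52 to 0.21. The 10 others had medians from -1.33 to 0.46, and only 1 of them was above 0. Over all tested clone transcripts 64.5% of differences were below 0, beside 58.0% of all tested probes and 72.3% of names other than BC.

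In 5 of the 33 series every tested member was lower in sign at 12 months. Of the tested members 2 of 8 in the L11019 series, 5 of 10 in the AF217571 series, 6 of 10 in the Z93351 series, 3 of 9 in the BC128697 series and 9 of 10 in the AM293738 series were above background on no 12-month array and passed the filter through the 3-month arrays alone, so their signs support nothing. From L11019 to L11036, 8 of 13 members were tested, with differences from -1.85 to -0.88 and a median of -1.33, and 7 were called lower at the threshold of the study. From AF217571 to AF217595, 10 of 16 members were tested, with differences from -1.73 to -0.34 and a median of -1.29, and 8 were called lower. From Z93351 to Z93371, 10 of 18 members were tested, with differences from -1.64 to -0.62 and a median of -1.25, and 5 were called lower. The BC128697 series had a median of -0.52 with 0 of 9 called, and the AM293738 series a median of -0.44 with 2 of 10 called lower. The SD of the differences within the L11019, AF217571 and Z93351 series was 0.41, 0.43 and 0.35, where over all tested clone transcripts it was 1.08. Picking series by a shared sign narrows the SD in advance, so these SDs support nothing. The SDs, medians and calls also include the members above background on no 12-month array. Members of the L11019, AF217571 and Z93351 series were dim, with median signals of 5.58, 5.14 and 4.74. With normexp the medians of these series were -0.61, -0.50 and -0.41, with 1 AF217571 member above 0.

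The array values differed between these series. The median signal of the AF217571 series was 6.31, 5.42 and 5.89 on the 3-month arrays and 4.57, 5.08 and 3.96 on the 12-month arrays. That of the L11019 series was 6.96, 5.74 and 6.56 and then 4.72, 5.33 and 4.44. In both, 3-month replicate 2 was the lowest of its age and 12-month replicate 2 the highest. The Z93351 series did not share this, with 5.73, 5.33 and 5.30 and then 4.27, 4.39 and 4.38. In the AF217571 series 2 members passed the adjusted threshold, and 0 of the L11019 and Z93351 series did. AF217572 was above background on all 6 arrays and fell by 1.55 (limma adjusted p 0.0372), while AF217595 was above background on no 12-month array, with a 3-month mean of 4.62 that is under the 12-month floor for a bound, so no fold is given for it. The largest series outside BC, AJ286145 to AJ286316, had 73 members, of which 27 were tested, 24 of them lower in sign and 3 higher, with a median of -0.98 and 9 called lower. Members of a series may share sequence, in which case their values are not independent, and this was not tested because no probe sequences were used here.

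One series outside BC went the other way. From AY724477 to AY724538, 13 of 14 members were tested and 10 were higher in sign, with a median of 0.46 and a median signal of 11.46, far above that of the lower series. AY724480 measured 13.33, 14.20 and 12.97 at 3 months and 15.18, 15.38 and 15.19 at 12 months, a rise of 1.75 (limma adjusted p 0.0341). AY724486 rose by 1.64 (limma adjusted p 0.0162) and AY724488 by 1.70 (limma adjusted p 0.0180), and the ages did not overlap for any of these 3. With the 75th percentile shift the series had 6 members below 0 and a median of 0.27.

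**Figure D5:**
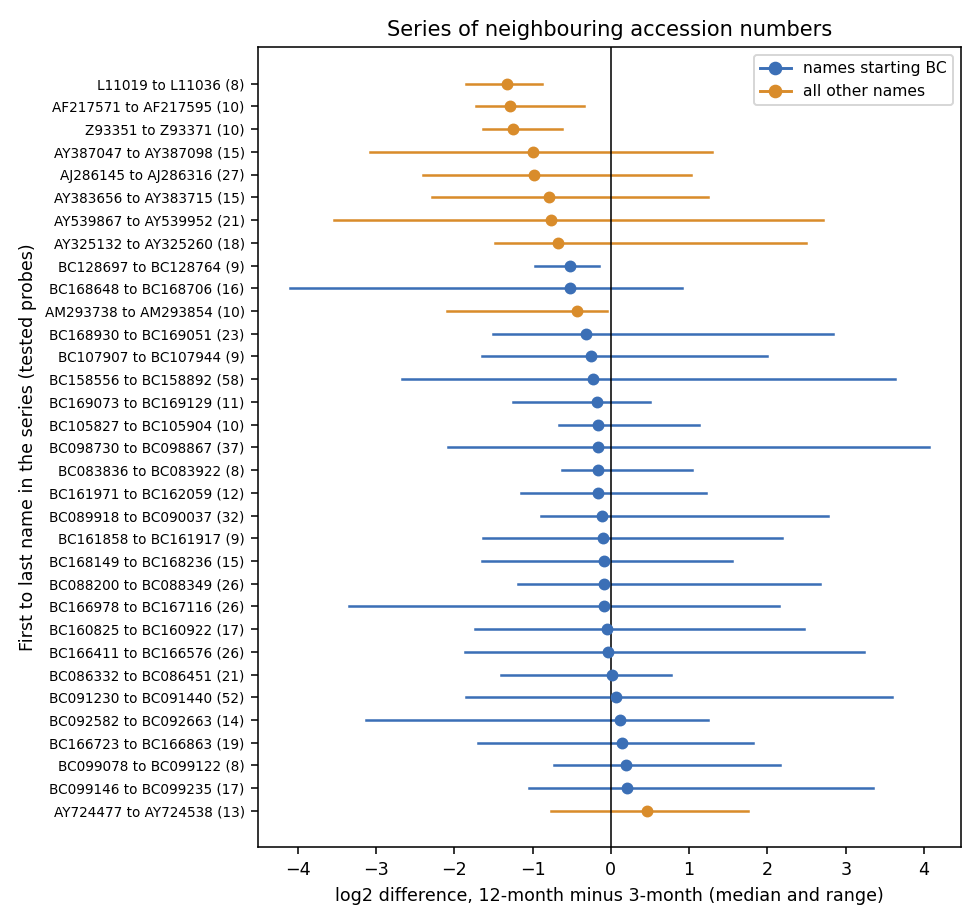
Median (point) and range (line) of the log2 difference, 12-month minus 3-month, over the tested members of each of the 33 series of neighbouring accession numbers, with the number tested in brackets; BC series are blue and all others orange. Of the 10 orange series 8 lie at the top with medians down to -1.33, the AM293738 series lies at -0.44 under 2 blue series, and the AY724477 series at the bottom has 0.46; the blue medians run from -0.52 to 0.21, and the BC128697 series lies wholly below 0.

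The 40 transcripts on 10 spots are 20 custom CUST_ probes, 6 TC names and 14 with other names. Of the 20 CUST_ probes 3 were tested, and 0 were called at either threshold or had an unadjusted p under 0.05 in limma. CUST_25_PI415351601 measured 8.19, 7.02 and 7.39 at 3 months and 5.80, 7.41 and 4.81 at 12 months, and CUST_26_PI415351601 was within 0.2 of it on every array. All 6 TC transcripts were tested, and 5 of them rose at the adjusted threshold, where 5.32% of all tested probes were called higher; the group was singled out after its values were seen. Apart from TC598318 and TC596747, these were TC587749 by 2.25, TC592284 by 2.01 and TC597264 by 1.20 (limma adjusted p 0.0180 to 0.0426). TC585145 measured 12.62, 12.94 and 12.38 at 3 months and 13.27, 13.63 and 13.04 at 12 months, with a difference of 0.67 that was not called (limma adjusted p 0.148). Of the 5 rises, TC596747 and TC598318 were called in all 6 fits that left out 1 array, TC587749 and TC592284 in 2 and TC597264 in 1. TC598318 passed the filter through the 12-month arrays alone, so its calls support nothing.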

How the data were processed

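The deposited scanner files hold spot intensity, which per the file headers was quantified by the authors with Agilent Feature Extraction 11.0.1.1 and background-subtracted, with no normalisation between arrays. The authors' table of log2 values holds 12145 mRNA probes and 0 of the transcripts described here, so it was not used. Arrays have no read depth, and their number limits the precision. Ages and replicate numbers came from the labels, except that 12-month replicate 3 carries no number and is only named so.

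The log2 intensity was averaged over spots not marked as outliers, quantile normalised over non-control probes, and tested with limma 3.58.1 in R 4.3.3 (lmFit and eBayes, two-sided, no block) on probes well above background on at least 3 arrays. Of the tested clone transcripts 4 had no value on some array and were fitted from the others. P-values were adjusted by Benjamini-Hochberg over the 17941 tested probes. The limma step was checked on simulated data. P-values measure the spread between these arrays.

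Named transcripts were the 5 largest rises and falls past an adjusted p of 0.05 without overlap and above background on the whole higher age, the smallest p in each direction within prefixes of at least 20 tested, and the 3 brightest; others are named as chosen later. The members, the lists and the rules were chosen with earlier results of these data known.

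The alternatives were the 75th percentile shift, normexp with an offset of 50 on median signals, other filters and thresholds, an intensity trend, replicate blocks, the 4 arrays with a shared ending in their names, leaving out each array, and plain t-tests. Scan could not be used as a block because each age had its own.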

Additional observations from a re-analysis of the deposited data

How the results depend on the processing

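The number of clone transcripts past the adjusted threshold, 150, ranged from 19 to 238 when 1 array was left out, was 37 with the methods' t-test and 367 at an adjusted p under 0.1. With only the 4 arrays that have a shared ending in their names it was 0 in limma, although 277 had an unadjusted p under 0.05. The number past the threshold of the study, 417, was 183 with normexp, 238 among probes above background on all 6 arrays, 231 with those 4 arrays and 277 with the methods' t-test. For BC names it was 65 with normexp and 77 with the 4 arrays, in place of 125. For the other names it was 118, 152 and 154 with normexp, the filter on all 6 arrays and the 4 arrays, in place of 292. The median difference was -0.11 with no filter, -0.13 with the filter on all 6 arrays, -0.15 with normexp and -0.60 with the 75th percentile shift; it stayed below 0 in every fit run. The drop in detection ran from -21.2 to -18.7 percentage points with 1 array left out.

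Same-numbered arrays did not deviate together (r of -0.01, -0.31 and -0.26 across all tested probes), so the numbers are not taken as pairs. With a replicate block of 3 pairs 10 clone transcripts passed the adjusted threshold in limma, with a block on the 4 numbered arrays 0, and with the paired t-test 0, where 240 and 239 had an unadjusted p under 0.05. Past the threshold of the study the block on the numbered arrays gave 239, 126 higher and 113 lower, of which 153 were names other than BC. The paired t-test gave 146, 79 higher and 67 lower. In both of these, higher calls outnumbered lower ones. The block of 3 pairs gave 353, 135 higher and 218 lower.

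Of the named transcripts AM418837 changed sign, to -0.068 with the 75th percentile shift and without 12-month replicate 1, 12-month replicate 2 or 3-month replicate 3 (range with 1 array left out, -0.14 to 0.27), and BC166798 to -0.55 with the shift; neither was called. Of 417 refits of the 31 named transcripts 147 lost the call and 265 kept both direction and side of the threshold. The cause was not tested. Dim transcripts at 12 months are limited by a detection floor of 4.26 to 5.13.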
